A study of Mus musculus with 32 samples.

Results

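Ribosome-protected footprints (RPFs) were compared between MIN6 cells held for 24 hours in 25 mM glucose and MIN6 cells held for the same time in 5.5 mM glucose. MIN6 is a mouse insulinoma line with the character of pancreatic β cells. Its genotype is labelled as wild type, although the line was derived from a mouse that carried a viral T antigen transgene in its β cells, and it stands here as a single dividing line for a cell type that in islets lies among other endocrine cells. Of the 32 libraries of the series, 15 are described: 7 RPF libraries at 25 mM (replicates 1 to 7) and 8 RPF libraries at 5.5 mM (replicates 1 to 8). All were made from cells given cycloheximide, which halts elongating ribosomes, for a few minutes before lysis, and the libraries were prepared in 2 batches, with replicates 1 to 4 in the first and 5 to 8 in the second. The 16th RPF library, labelled 25 mM replicate 8, was left out of the levels. The 15 were thus chosen by measured values, since that library was set aside on the RPF levels of the same contrast.

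Ribosome profiling digests the mRNA that ribosomes do not cover and sequences the stretches that they protect. The RPF count of a gene therefore follows both how much of its mRNA is present and how many ribosomes each mRNA carries, and these were not separated here. In β cells glucose is a nutrient and a signal at once, since its metabolism closes potassium channels, admits calcium and drives insulin synthesis and secretion. A β cell makes large amounts of secretory protein, which is folded in the endoplasmic reticulum (ER), modified in the Golgi and packed into granules.

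The 25 mM libraries held 363569 to 3283379 counts and the 5.5 mM libraries 392529 to 7012999, and all libraries of the second batch held fewer counts than any of the first. The insulin genes Ins1 and Ins2 took 7.60% to 12.2% of the counts at 25 mM and 10.4% to 14.1% at 5.5 mM. The library that was left out resembled 5.5 mM. It held 35.3 CPM of Trib3, against 3.90 to 11.1 CPM in the other 25 mM libraries and 24.2 to 50.7 CPM at 5.5 mM (Trib3 encodes a pseudokinase induced by amino acid stress), 16.9 CPM of the ERK phosphatase gene Dusp6, against 76.0 to 118 CPM and 3.96 to 18.2 CPM, and 15.5 CPM of the ER retrieval receptor gene Kdelr3, against 42.5 to 60.5 CPM and 4.48 to 11.9 CPM. CPM, the usual unit of library-scaled counts, were computed after TMM scaling, which corrects each library's total for its composition. Over the 1938 genes called in the first batch alone that were also tested over all 16 libraries, this library lay nearer to the mean of the second batch's 5.5 mM libraries than to that of its 25 mM libraries for 77.8% of genes, and the other 3 libraries at 25 mM in that batch did so for 22.7% to 27.2%. Among the 5.5 mM libraries, replicate 3 stood apart from the rest of the first batch. It lay nearer to 5.5 mM for 72.3% of these genes, against 94.7% to 95.8% in the other 3, and without it 1445 genes were higher and 1462 lower of 8080 tested. Because a library had been set aside for its values, every call was made with it: a gene was called higher or lower at an adjusted p under 0.1 in edgeR's quasi-likelihood test of all 16 libraries with batch as a covariate. The log2 fold changes (25 over 5.5 mM) with their standard errors (SE) and the CPM (mean ± SD, n = 7 at 25 mM and n = 8 at 5.5 mM) describe the 15 libraries and carry no test of their own.

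The β cell markers matched the label. All 10 were measured, and the summed level lay between 92427 and 152427 CPM at 25 mM and between 116606 and 156644 CPM at 5.5 mM. Of the 10, 4 were called higher at 25 mM and 2 lower. The transcription factor gene Pdx1 had 307 ± 54.2 CPM at 25 mM and 242 ± 21.3 CPM at 5.5 mM. Means were lower at 25 mM for the glucose transporter gene Slc2a2 (173 ± 41.9 CPM, against 242 ± 34.5 CPM) and the zinc transporter gene Slc30a8 (576 ± 56.3 CPM, against 693 ± 40.3 CPM). Of 13 stromal, endothelial and immune markers, each averaged under 1 CPM. Of 10 acinar and duct markers, 7 averaged under 1 CPM, and their sum was 976 to 1494 CPM at 25 mM, against 807 to 1093 CPM at 5.5 mM. Most of it was the keratin gene Krt7, with 1171 ± 215 CPM at 25 mM and 949 ± 83.3 CPM at 5.5 mM. In this group 2 genes could be tested, and 2 were called higher. Of 10 markers of other islet cells, 4 averaged under 1 CPM, and their sum was 8268 to 12719 CPM at 25 mM, against 1917 to 4983 CPM at 5.5 mM. That sum was almost wholly Ttr, with Gcg next. Whether more cells carried these mRNAs or each cell carried more of them cannot be told apart in bulk libraries.

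Footprints of 30.9% of genes differed between the glucose concentrations, in similar numbers up and down and mostly by modest amounts. At 25 mM 1351 of the 8709 genes that could be tested had more footprints (15.5%) and 1338 had fewer (15.4%). The median absolute log2 fold change of the called genes was 0.50, and 133 of the higher and 60 of the lower genes changed 2-fold or more. Among the 15 libraries, 302 genes (3.47%) had every library at 25 mM above every library at 5.5 mM, and 224 genes (2.57%) had every one below. Here and below, a lack of overlap refers to these 15 libraries. Setting a library aside because it resembled 5.5 mM favours such separation, so it is a description and no support for a change. The first batch, in which no library was left out, gave 1152 higher (11.1%) and 978 lower genes (9.39%) of 10414 tested on its own. The second batch, with all its 8 libraries, gave 197 higher and 94 lower of 6751, and it shares no library with the first. Of the 1640 genes called in the first batch and tested in the second, 1576 (96.1%) had the same sign there with the 3 libraries at 25 mM that were kept and 1544 (94.1%) with all 4. The fold changes of these genes correlated between the batches across genes (Pearson's r = 0.907, Spearman's rho = 0.886), and genes are not independent replicates. Over all 6751 genes tested in both batches, called or not, 76.0% had the same sign with the 3 libraries (r = 0.740, rho = 0.699).

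**Figure D1:**
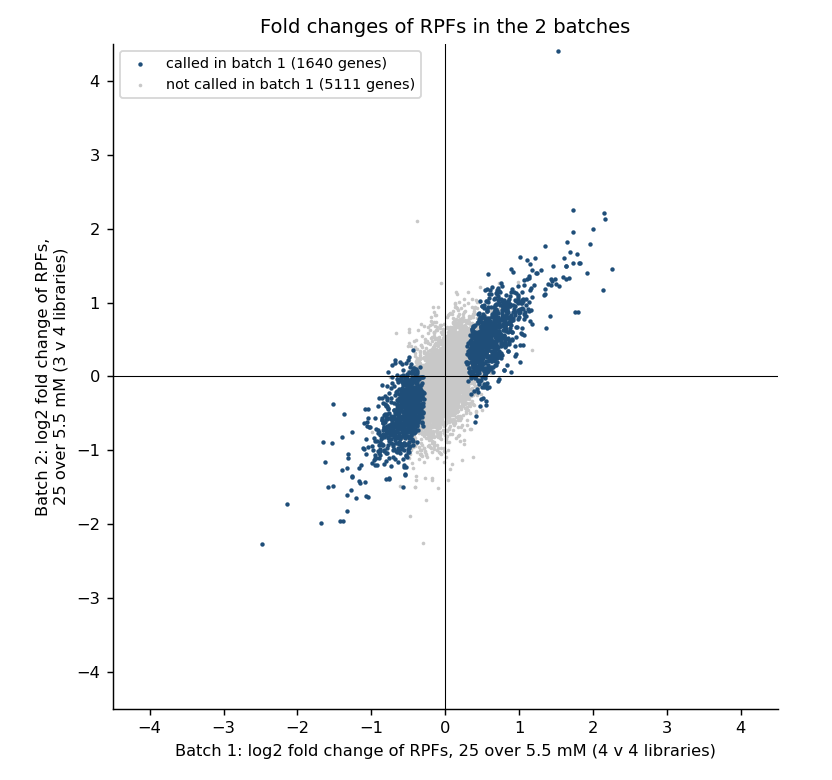
Log2 fold change of RPFs (25 over 5.5 mM) of each gene in batch 1 (4 libraries at 25 mM, 4 at 5.5 mM; x axis) against batch 2 (3 libraries at 25 mM, 4 at 5.5 mM; y axis). Each dot is a gene tested in both batches, dark dots are the 1640 genes called in batch 1, and 1576 of these lie in the quadrants of equal sign.

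Among well-expressed genes, those at the head of the ranking encoded secreted proteins, signalling regulators and proteins of the secretory pathway. They are the 15 highest log2 fold changes among genes called higher, above the median level, equal in sign in both batches and without overlap between the groups. Genes whose results were known beforehand were not ranked, Dusp6 and Kdelr3 among them. Ttr, the carrier of thyroid hormone and retinol-binding protein, was the most abundant of them. Its footprints ranged over 7810.4 to 12353 CPM (median 10434) at 25 mM, against 1789 to 4763 CPM (median 3170.0) at 5.5 mM. The lowest library at 25 mM thus stood above the highest at 5.5 mM, with a log2 fold change of 1.72 (SE 0.15) and an adjusted p of 5.0e-06. Pdyn, the precursor of the dynorphin opioid peptides, ranged over 1113 to 1428 CPM (median 1299) at 25 mM, against 256 to 556 CPM (median 400.3) at 5.5 mM (log2 fold change 1.69 (SE 0.14), adjusted p = 3.0e-06). Gc, the vitamin D-binding protein of plasma, reached 385 ± 81.9 CPM at 25 mM and 129 ± 42.1 CPM at 5.5 mM, a log2 fold change of 1.58 (SE 0.17). Tph1, the enzyme that makes serotonin's precursor from tryptophan, had 175 to 288 CPM (median 213) at 25 mM, against 63.4 to 90.0 CPM (median 76.8) at 5.5 mM. Here too all 7 libraries at 25 mM exceeded all 8 at 5.5 mM, and the log2 fold change was 1.50 (SE 0.11) (adjusted p = 3.2e-06).

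Several of the leading genes act in signalling and the cell cycle. Nr4a1, an orphan nuclear receptor induced by calcium and cAMP, had 54.9 to 102 CPM (median 64.3) at 25 mM, against 14.3 to 41.6 CPM (median 23.9) at 5.5 mM (log2 fold change 1.83 (SE 0.19), adjusted p = 2.5e-05). Its log2 fold change was 2.13 in the first batch and 1.17 in the second, a difference that was not tested. Ccnd2, the cyclin that drives β cells into division, had 59.9 to 115 CPM (median 92.7) at 25 mM, against 21.8 to 33.7 CPM (median 26.5) at 5.5 mM (log2 fold change 1.74 (SE 0.14), adjusted p = 5.6e-06). Dusp5, a nuclear phosphatase that holds ERK inactive, had 326 ± 71.8 CPM at 25 mM and 109 ± 30.5 CPM at 5.5 mM. Rgs4, which speeds the turn-off of G proteins, had 66.8 ± 11.2 CPM at 25 mM and 20.6 ± 9.13 CPM at 5.5 mM, and Id1, an inhibitor of basic helix-loop-helix factors, had 123 ± 43.6 CPM at 25 mM and 44.0 ± 8.22 CPM at 5.5 mM. Their log2 fold changes were 1.60, 1.54 and 1.53. Shisa2, of a family that in frogs retains Wnt and FGF receptors in the ER, rose by 1.66 on this scale.

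The other leading genes belong to membranes, matrix and glycosylation. Wipi1, a phosphoinositide-binding protein of autophagosome formation, had the smallest error of the group: 179 to 257 CPM (median 209) at 25 mM, against 51.8 to 96.3 CPM (median 67.0) at 5.5 mM, a log2 fold change of 1.73 (SE 0.09) and an adjusted p of 7.1e-07. Gmppb, which makes the GDP-mannose used for glycans, had 153 ± 18.3 CPM at 25 mM and 54.7 ± 7.34 CPM at 5.5 mM (log2 fold change 1.47 (SE 0.11), adjusted p = 1.7e-06). Rcn3, a calcium-binding protein of the ER lumen, had 135 ± 22.2 CPM at 25 mM and 41.0 ± 8.84 CPM at 5.5 mM, and Col27a1, a fibrillar collagen, had 136 ± 32.7 CPM at 25 mM and 43.7 ± 11.3 CPM at 5.5 mM. Gsdma, a gasdermin, rose by 1.58, but reads of its close relatives may be split among copies and its level is uncertain. In the library labelled 25 mM replicate 8 these genes lay near the 5.5 mM levels, with 3568 CPM of Ttr, 505 CPM of Pdyn, 77.6 CPM of Wipi1 and 19.7 CPM of Ccnd2.

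**Figure D2:**
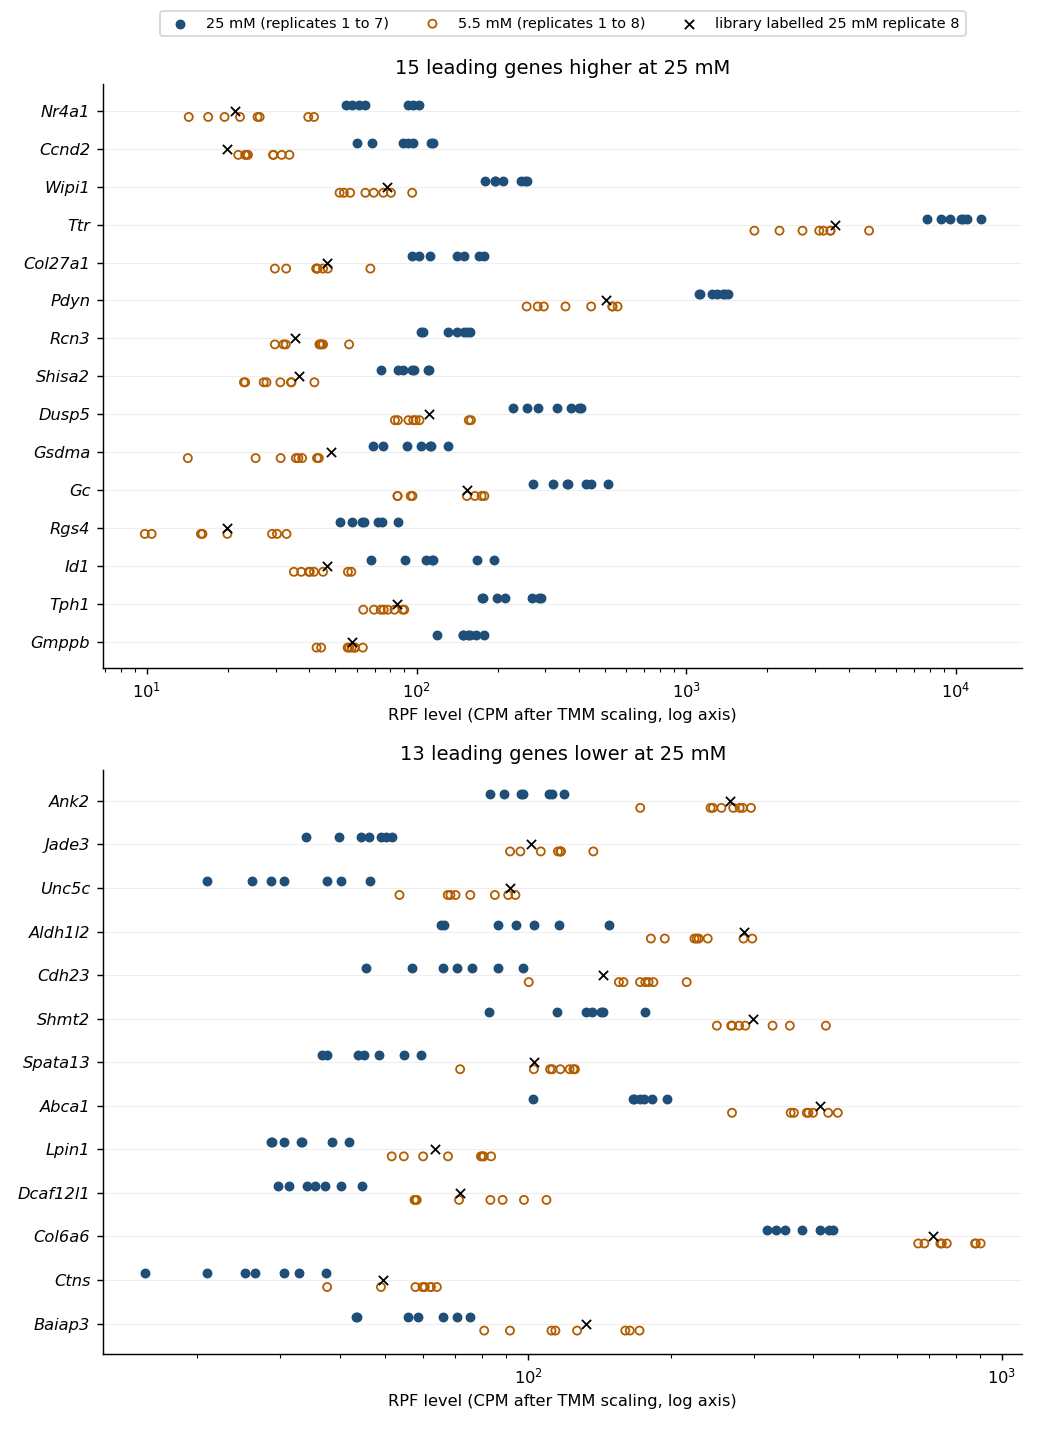
RPF level in each library (CPM after TMM scaling, log axis) of the 15 leading higher genes and 13 of the 15 leading lower genes. Filled circles are the 7 libraries at 25 mM, open circles the 8 at 5.5 mM and crosses the library labelled 25 mM replicate 8. In every row the filled and open circles do not overlap, which was a condition of the choice. The crosses lie with or near the open circles.

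Most tested members of the list of secreted peptides rose. Of the 66 listed genes of neuropeptides and other secreted peptides in the table, 14 were expressed well enough to test, 10 of these rose and 0 fell, and their median log2 fold change was 0.77, beside 0.00 for all genes tested. The share that rose was 71.4%, beside 15.5% of all genes. The filter for low counts can admit a gene through the glucose concentration where it is higher. With few members tested, the share can therefore lean towards genes that changed, and this was not corrected for. List counts given below without a share are to be read beside 15.5% higher and 15.4% lower among all genes tested. Cck, the precursor of the gut and brain peptide cholecystokinin, was the most abundant of those named, with 3712 to 6327 CPM (median 4918) at 25 mM, against 1477 to 2636 CPM (median 2048) at 5.5 mM (log2 fold change 1.27 (SE 0.12), adjusted p = 1.1e-05). Each of the 7 libraries at 25 mM held more of it than any at 5.5 mM. Angpt2, a ligand of the endothelial receptor Tie2, had 31.5 ± 4.05 CPM at 25 mM and 9.72 ± 3.47 CPM at 5.5 mM (log2 fold change 1.54 (SE 0.18)). Nucb2, which contains the satiety peptide nesfatin, had 413 ± 78.2 CPM at 25 mM and 211 ± 47.7 CPM at 5.5 mM (log2 fold change 0.97 (SE 0.13), adjusted p = 7.7e-05). Some of the members that rose are not hormones: Manf, a factor of the ER lumen that is secreted under stress, had 695 ± 111 CPM at 25 mM and 358 ± 87.2 CPM at 5.5 mM (log2 fold change 0.94 (SE 0.12)). Among the markers of other islet cells, Gcg, the glucagon precursor of α cells, had 265 ± 84.8 CPM at 25 mM and 104 ± 42.1 CPM at 5.5 mM, with an overlap between the groups (log2 fold change 1.29 (SE 0.17), adjusted p = 1.4e-05). The insulin genes, counted with the β cell markers, had no higher mean at 25 mM. Ins1 had 20875 ± 3878 CPM at 25 mM and 21115 ± 2097 CPM at 5.5 mM, and Ins2 85806 ± 13626 CPM and 95618 ± 12011 CPM. 

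Matrix genes moved in both directions. Of proteoglycans and matrix-remodelling proteins, 9 of 22 tested members rose and 1 fell, with a median of 0.36. Adamts17, a secreted metalloprotease, had 18.9 ± 6.17 CPM at 25 mM and 6.74 ± 2.30 CPM at 5.5 mM. Plat, tissue plasminogen activator, had 30.2 ± 6.47 CPM at 25 mM and 13.6 ± 5.03 CPM at 5.5 mM, and P3h1, which hydroxylates prolines of collagen in the ER, had 59.7 ± 6.44 CPM at 25 mM and 34.1 ± 6.44 CPM at 5.5 mM. Among the matrix proteins themselves 3 rose and 3 fell of 14 tested. Spp1, the phosphoprotein osteopontin, was the most changed, with 41.3 to 99.6 CPM (median 61.1) at 25 mM, against 9.91 to 25.7 CPM (median 16.8) at 5.5 mM (log2 fold change 1.87 (SE 0.17), adjusted p = 1.3e-06). The groups did not overlap in osteopontin, and it was higher in both batches (log2 fold change 1.73 in the first and 2.25 in the second). The collagen genes differed in direction, since Col27a1 (1.72) rose and Col6a6 (-1.04) fell.

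Among small families of membrane and redox proteins, more members rose than fell. Of the tetraspanins, membrane organizers with 4 transmembrane segments, 7 of 15 tested members rose and 1 fell (46.7% higher). Tspan13 had 275 to 419 CPM (median 359) at 25 mM, against 144 to 248 CPM (median 164) at 5.5 mM, without overlap (log2 fold change 0.95 (SE 0.12), adjusted p = 8.9e-05). Tspan31 (0.54), Cd63 (0.45), Cd151 (0.45) and Tspan3 (0.28) rose less. Of the selenoproteins and the factors that insert selenocysteine, 5 of 27 tested members rose and 0 fell, a share higher (18.5%) near that of all genes. The members that rose most surely were the ER proteins Selenos, with 96.5 ± 16.9 CPM at 25 mM and 44.8 ± 8.78 CPM at 5.5 mM (log2 fold change 1.08 (SE 0.12)), Selenof (0.77) and Selenom (0.90), and the glutathione peroxidases Gpx1 (0.70) and Gpx2 (0.64).

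Among genes of metal handling, metallothioneins, copper proteins and zinc importers held the larger share that rose, a difference that was not tested. Of these, 8 of 18 tested members rose and 0 fell (44.4% higher). Not all zinc genes went this way. The zinc transporter gene Slc30a8, given above with the β cell markers, had a lower mean at 25 mM (576 ± 56.3 CPM, against 693 ± 40.3 CPM at 5.5 mM). Mt3, a metallothionein best known from the brain, had 37.4 to 93.2 CPM (median 62.9) at 25 mM, against 5.95 to 25.7 CPM (median 14.5) at 5.5 mM, with no overlap (log2 fold change 1.92 (SE 0.20), adjusted p = 1.0e-05). Slc39a7, which releases zinc from the ER and Golgi, had 361 ± 40.5 CPM at 25 mM and 194 ± 23.1 CPM at 5.5 mM (log2 fold change 0.87 (SE 0.09)), and Slc39a8, a zinc and manganese importer of the cell surface, had 80.4 ± 19.2 CPM at 25 mM and 41.5 ± 11.1 CPM at 5.5 mM. Of the genes of iron, heme and iron-sulfur clusters, 5 rose and 10 fell of 48 tested (10.4% higher and 20.8% lower, beside 15.5% and 15.4% of all genes). Cpox, an enzyme of heme synthesis, was higher (0.65 (SE 0.13)), as was the ferritin gene Fth1 (0.74 (SE 0.14)), whose reads can be shared with pseudogenes. Of the sodium pumps and other ATPases listed as cation-transporting, 5 of 10 tested members rose and 0 fell, the surest being the ER ATPase gene Atp13a1 (0.44). These counts do not include the ER calcium pump gene Atp2a2. It was called lower in the first batch (log2 fold change -0.59) and had a log2 fold change of -0.68 in the second, without 25 mM replicate 8.

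The glycan and lipid factories of the ER and Golgi changed member by member. Of 82 Golgi glycan enzymes tested, 17 rose and 13 fell (20.7% higher and 15.9% lower, beside 15.5% and 15.4% of all genes). Slc35b1, which brings ATP into the ER, had 307 to 484 CPM (median 448) at 25 mM, against 148 to 255 CPM (median 177) at 5.5 mM (log2 fold change 1.08 (SE 0.12), adjusted p = 1.2e-05). Its groups did not overlap. Chpf (0.82) and Chpf2 (0.99), which polymerize chondroitin, Slc35c1 (0.97), which imports GDP-fucose, and Nans (0.72), which makes sialic acid, rose as well. Of the enzymes of the GPI anchor, 5 rose and 2 fell of 23 tested (21.7% higher and 8.7% lower). Among them Pgap1 (0.41) and Dpm3 (0.71) were higher and Pgap3 (-0.54) lower. In membrane lipid synthesis 16 rose and 11 fell of 75 tested (21.3% higher and 14.7% lower, not far from the shares of all genes). Sgpl1, which breaks down sphingosine phosphate, had 92.2 ± 15.3 CPM at 25 mM and 174 ± 21.6 CPM at 5.5 mM (log2 fold change -0.92 (SE 0.11)), whereas Smpd1, the lysosomal sphingomyelinase, had 119.6 ± 13.9 CPM at 25 mM and 73.8 ± 9.07 CPM at 5.5 mM (log2 fold change 0.69 (SE 0.09)). Pla2g12a (1.21), a secreted phospholipase, and Agpat5 (0.52), an acyltransferase of phosphatidic acid synthesis, were higher.

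The promoters of genes that rose held the binding element of XBP1, a transcription factor that ER stress sensors activate, in a larger share than those of all genes tested, a difference that was not tested. The sequences are RefSeq windows on GRCm38.p6 from 250 bases before to 50 bases after the start of each gene. They matched 7041 genes tested (80.8%) and 1094 of the higher genes (81.0%). Of the lower genes 78.4% had one, and motif shares were not computed for those, so the higher genes were not set against them. TGACGTGG on either strand was found in 24 of the higher genes (2.19%), in 62 genes tested (0.881%) and in 0.607% of 27025 promoters. The ER stress element, taken as CCAAT and CCACG with 9 bases between them, was found in 5 of the higher genes (0.457%), in 0.170% of genes tested and in 0.130% of all promoters. The reverse complement of the XBP1 element begins with the last letters of the ER stress element, so matches can overlap, and the element itself shares the letters TGACGT with the cAMP response element, TGACGTCA. That element was held by 3.56% of the higher genes and 3.59% of genes tested (1.88% of all promoters). Shares of the higher genes and of genes tested also lay close together for the E-box CACGTG (11.0% and 11.0%, with 7.24% of all promoters), the ETS site CCGGAAGT (10.1%, 9.71% and 4.00%), the amino acid response element TGATGNAA (1.83%, 2.00% and 4.06%) and the TATA box TATAAA (6.95%, 6.04% and 14.2%). The lysosomal element, GTCAC followed directly by GTGAC, was held by a smaller share of the higher genes (5 genes, 0.457%) than of genes tested (64 genes, 0.909%). It was found in 0.359% of all promoters, and this difference was not tested either. These 8 motifs were looked up with the changes of the genes known, and the XBP1 element was singled out after its share was seen. A match is a run of letters, not a site shown to be bound.

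Elements are shown for 8 genes, so that they can be set beside the footprints. They are the highest-ranked of the higher genes whose element, with the bases printed on either side, lay within the promoter and wholly upstream of the start. Genes of a chromosome kept out of this display were not considered, so higher-ranked genes with an element may be missing. Each line gives 30 bases on the strand of the gene, 5′ to 3′, with the element in capitals as TGACGTGG or as its reverse complement, CCACGTCA.
Kdelr3 (chr15:79516367-79516396, plus strand, element ending 22 bases before the start): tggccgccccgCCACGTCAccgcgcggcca
Sec16b (chr1:157506741-157506770, plus strand, element ending 36 bases before the start): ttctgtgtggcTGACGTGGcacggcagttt
Txndc11 (chr16:11134616-11134645, minus strand, element ending 94 bases before the start): tgaagtgtggcTGACGTGGagagtccgggt
Sec24d (chr3:123267459-123267488, plus strand, element ending 18 bases before the start): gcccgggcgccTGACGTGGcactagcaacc
Ube2j1 (chr4:33031301-33031330, plus strand, element ending 60 bases before the start): cgaagcgcccgCCACGTCAggccgacttca
Slc22a17 (chr14:54913145-54913174, minus strand, element ending 23 bases before the start): ccaggttctgcTGACGTGGgaaggggagga
Cdk7 (chr13:100731147-100731176, minus strand, element ending 215 bases before the start): acttagaaataCCACGTCAgaaccctggcc
Tm9sf3 (chr19:41264028-41264057, minus strand, element ending 34 bases before the start): gggtggccggaTGACGTGGctgagtcagag
Kdelr3, Sec16b, which organizes the exit sites of the ER, and Sec24d, of the coat of vesicles that leave there, belong to early transport. Sec16b had 29.0 ± 7.28 CPM at 25 mM and 10.4 ± 6.12 CPM at 5.5 mM (log2 fold change 1.72 (SE 0.21), adjusted p = 9.4e-06). Txndc11, a thioredoxin-domain protein of the ER, had 129.5 ± 19.4 CPM at 25 mM and 72.3 ± 11.3 CPM at 5.5 mM (0.84 (SE 0.11)), and Ube2j1, the ubiquitin-conjugating enzyme of ER-associated degradation, had 168 ± 12.7 CPM at 25 mM and 109.6 ± 16.3 CPM at 5.5 mM (0.60 (SE 0.09)). The log2 fold changes of the others were 0.57 for Slc22a17, 0.53 for Cdk7 and 0.49 for Tm9sf3.

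At the other end of the ranking were genes of scaffolds of the cell cortex, adhesion and guidance receptors, folate enzymes and lipid transporters. The same rule gave the 15 lowest log2 fold changes, of which 13 are described. Ank2, an ankyrin that ties membrane proteins to spectrin, had 83.0 to 119 CPM (median 97.3) at 25 mM, against 172 to 295 CPM (median 263) at 5.5 mM. Its highest library at 25 mM lay below its lowest at 5.5 mM, and the log2 fold change was -1.30 (SE 0.11) (adjusted p = 3.8e-05). Jade3, a scaffold of a histone acetyltransferase, had 34.1 to 51.5 CPM (median 46.1) at 25 mM, against 91.6 to 137 CPM (median 116) at 5.5 mM (log2 fold change -1.30 (SE 0.11), adjusted p = 1.0e-05). Cdh23, a cadherin of hair cell tip links, had 71.3 ± 17.5 CPM at 25 mM and 168 ± 33.0 CPM at 5.5 mM (log2 fold change -1.24 (SE 0.13)). Spata13, an exchange factor of RAC and CDC42, had 46.5 ± 8.37 CPM at 25 mM and 111 ± 17.6 CPM at 5.5 mM. Falls of the same order were measured for Baiap3 (-1.02), a C2-domain protein of dense-core vesicle traffic, Ctns (-1.04), the cystine exporter of lysosomes, Dcaf12l1 (-1.07), a cullin substrate receptor whose close relative may share reads, and the collagen gene Col6a6, with 380.3 ± 48.6 CPM at 25 mM and 783 ± 91.9 CPM at 5.5 mM. In the library labelled 25 mM replicate 8, Ank2 had 267 CPM and Jade3 102 CPM.

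Among the cytoskeletal lists, the largest share lower was that of myosins and spectrins. Of myosins, tropomyosins and spectrin partners, 19 of 37 tested fell and 5 rose, a share of 51.4% lower beside 15.4% of all genes, and the median was -0.35. Myo10 (-0.80), which carries cargo to the tips of filopodia, and Myo18a (-0.95), a myosin of the Golgi and cortex, fell. Tpm1, a tropomyosin, went the other way, with 52.6 ± 11.1 CPM at 25 mM and 26.9 ± 6.53 CPM at 5.5 mM (log2 fold change 0.96 (SE 0.15), adjusted p = 7.4e-05). Actins and their assembly factors moved in both directions (9 rose and 10 fell of 66 tested). So did microtubule proteins (16 rose and 23 fell of 98 tested), where Kif1a, the kinesin that carries dense-core vesicles, had 147 to 202 CPM (median 159) at 25 mM, against 232 to 385 CPM (median 329) at 5.5 mM (log2 fold change -0.89 (SE 0.11), adjusted p = 4.1e-05). In Kif1a the groups did not overlap. Map4 (-0.66), a stabilizer of microtubules, fell, and the tubulin gene Tubb6 (1.15), Dcx (0.76) (doublecortin) and the dynein light chain gene Dynll1 (1.23) rose.

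Of 54 genes of the primary cilium tested, 19 fell and 5 rose (35.2% lower, median -0.25). The cilium is an antenna that is built by intraflagellar transport. Ift172 had 34.6 to 68.8 CPM (median 53.3) at 25 mM, against 69.9 to 127 CPM (median 95.9) at 5.5 mM, without overlap (log2 fold change -0.79 (SE 0.13), adjusted p = 9.7e-05). Ift140 (-0.81) and the retrograde motor gene Dync2h1 (-0.66) fell too, while Ift20 (1.38), which also sits at the Golgi, and Arl3 (0.48), a small GTPase, rose.

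Among adhesion and guidance genes more were called lower than higher, except for integrins. Of neuronal adhesion genes, 3 of 26 tested members rose and 11 fell (42.3% lower). Ncam1, the neural cell adhesion molecule that β cells share with neurons, had 552 to 662 CPM (median 625) at 25 mM, against 818 to 1058 CPM (median 877) at 5.5 mM (log2 fold change -0.59 (SE 0.07), adjusted p = 4.5e-04). The teneurin gene Tenm3 (-0.54) and the receptor phosphatase gene Ptprf (-0.46) fell, and Cntn1, a contactin, rose (0.87). Of axon guidance receptors, 0 of 11 tested members rose and 6 fell (54.5% lower), and of the ligands 1 rose and 2 fell of 9 tested. Unc5c, a netrin receptor, had 32.9 ± 8.85 CPM at 25 mM and 75.7 ± 13.6 CPM at 5.5 mM (log2 fold change -1.27 (SE 0.15)), and Plxnb2, a semaphorin receptor, had 399.6 ± 32.8 CPM at 25 mM and 577 ± 50.7 CPM at 5.5 mM (log2 fold change -0.52 (SE 0.08)). Epha7 (-0.94), an ephrin receptor, and Sema4b (-0.78) also fell, and Sema3c (0.68) rose. Of cadherins and junction proteins, 1 of 34 tested members rose and 11 fell (32.4% lower). Cdh1, the E-cadherin that holds islet cells together, had 296 to 397 CPM (median 334) at 25 mM, against 448 to 613 CPM (median 546) at 5.5 mM (log2 fold change -0.61 (SE 0.09), adjusted p = 0.0019). All 7 libraries at 25 mM lay below the 5.5 mM libraries in E-cadherin, and Jup (-0.55) (plakoglobin) fell as well. Integrins and focal adhesion proteins were even (4 rose and 4 fell of 24 tested), with Tns2 (-1.23) lower and its relative Tns3 (0.55) higher. Among neurotransmitter receptors and synaptic scaffolds 0 rose and 4 fell of 20 tested (20% lower, beside 15.4% of all genes). Those that fell include Pclo, the giant scaffold piccolo of release sites, with 496 ± 56.9 CPM at 25 mM and 741 ± 86.2 CPM at 5.5 mM (-0.56 (SE 0.09)).

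**Figure D3:**
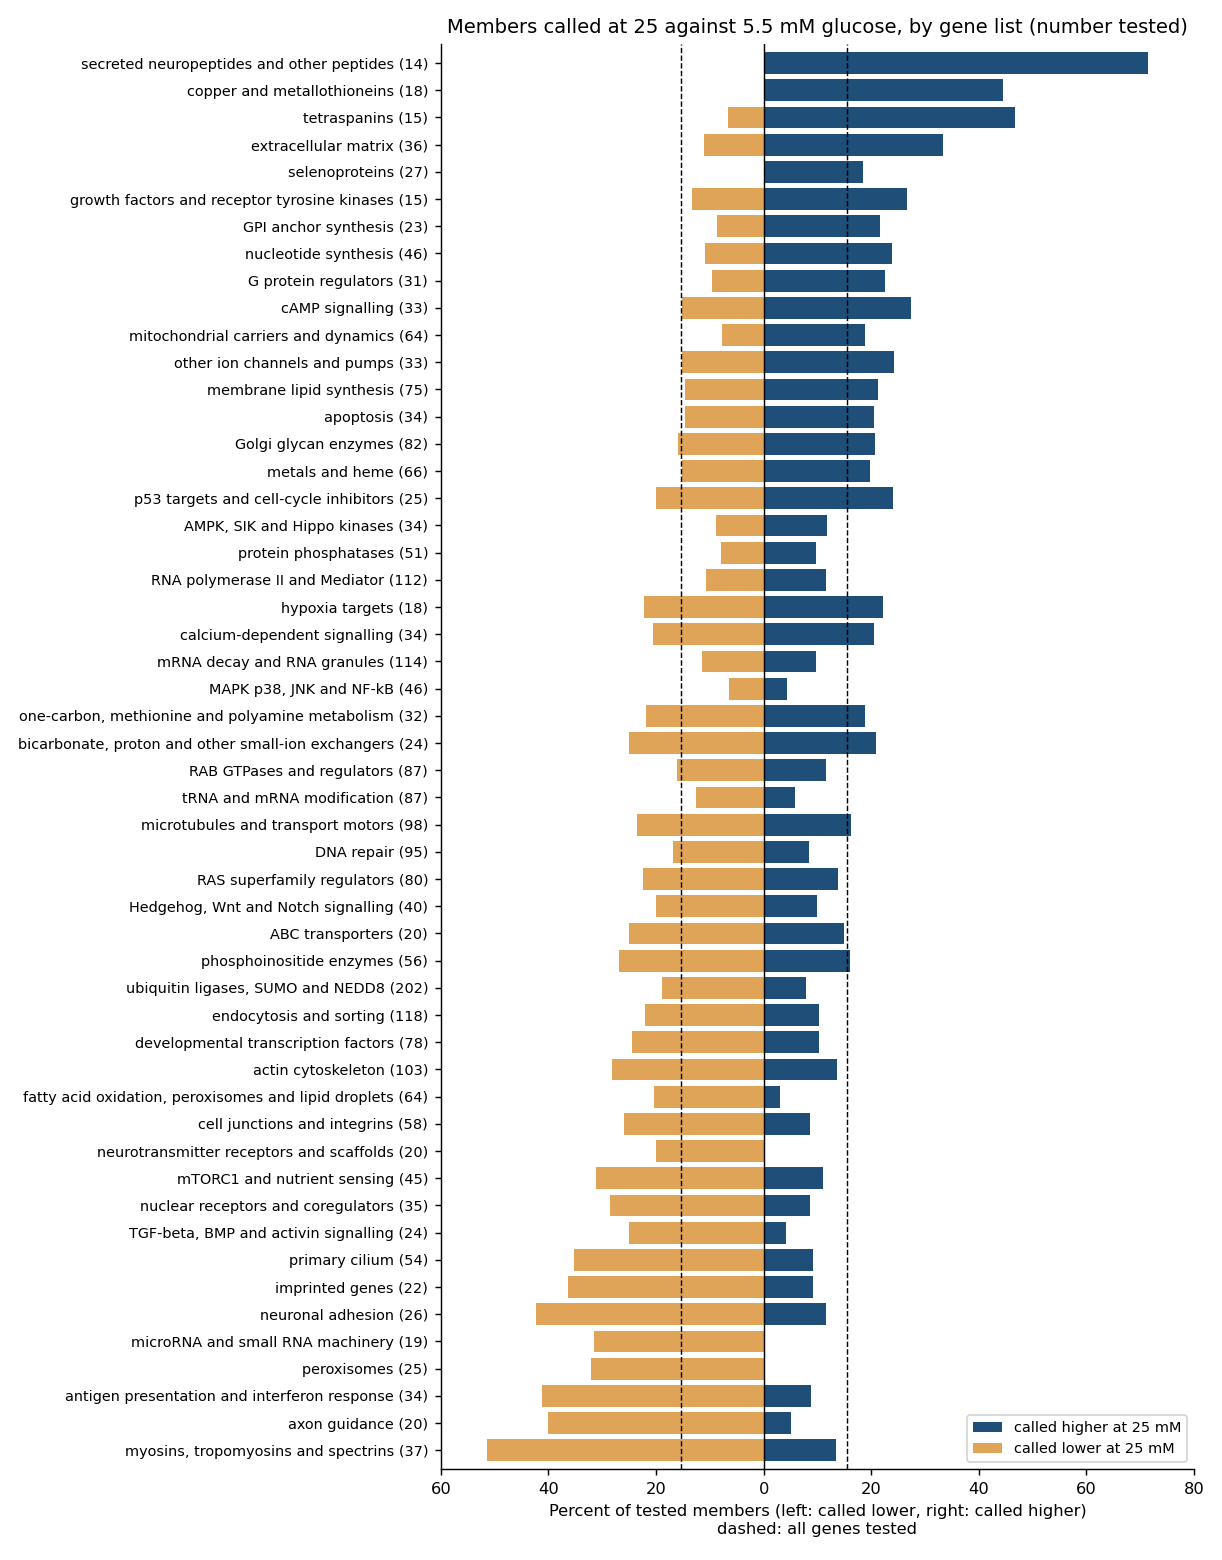
Share of tested members called higher (right, dark bars) and lower (left, light bars) at 25 mM in the 49 gene lists and 3 of their parts, in percent, with the number tested beside the list's name. Dashed lines mark the shares among all 8709 genes tested, 15.5% higher and 15.4% lower. Secreted peptides reach furthest to the right, with 10 of 14 higher, and myosins, tropomyosins and spectrins furthest to the left of these lists, with 19 of 37 lower.

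The genes that fell had longer spans on the chromosome, at the median, than those that rose. The span of a gene, its introns included, was taken from RefSeq (GRCm38.p6) and was known for 8686 genes tested. The median span was 16.8 kb for the higher genes, 45.9 kb for the lower and 26.3 kb for those not called. Of the quintile of genes with the shortest spans (median 5.18 kb), 25.2% were higher and 7.65% lower. Of the quintile with the longest (median 131 kb), 9.67% were higher and 27.1% lower. The median log2 fold change went down from quintile to quintile, 0.15, 0.06, -0.00, -0.06 and -0.14. In the first batch alone it was 0.14 in the shortest quintile and -0.11 in the longest, and in the second batch 0.21 and -0.17. The ends were ordered in the same way among genes above the median level (36.5% higher and 9.07% lower in the shortest quintile, 11.1% and 34.3% in the longest) and among those below it (16.6% and 6.58%, then 7.79% and 17.4%). Below the median level the steps between were uneven, with 11.1% lower in the middle quintile and 10.3% in the next. Without the genes of ribosomal proteins, histones and respiratory complexes, which are short, the shortest quintile still had 23.3% higher and 8.48% lower. Span and log2 fold change correlated at Spearman's rho = -0.272 across genes, which are not independent replicates. Span goes together with intron content and with the size of the protein, and which of these accompanies the change was not tested, since coding lengths were not used here.

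**Figure D4:**
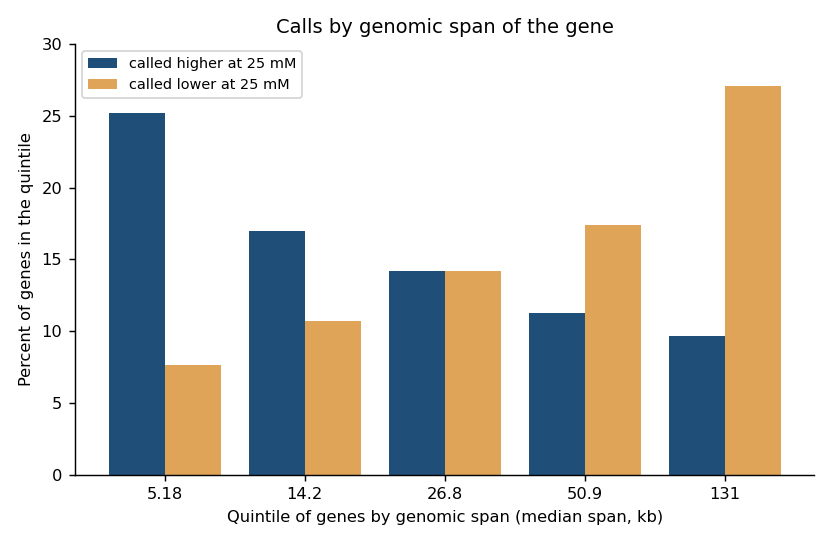
Percent of genes called higher (dark bars) and lower (light bars) at 25 mM in quintiles of the genes tested, ordered by genomic span (median span of each quintile under the bars, in kb; 1737 or 1738 genes each). The dark bars fall from 25.2% to 9.67% and the light bars rise from 7.65% to 27.1%.

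Some lipid transporters and peroxisomal enzymes fell. Abca1, which exports cholesterol to apolipoprotein A-I, had 103 to 196 CPM (median 172) at 25 mM, against 269 to 450.3 CPM (median 389) at 5.5 mM (log2 fold change -1.17 (SE 0.11), adjusted p = 9.3e-05). Abcg1, which exports it to mature lipoproteins, had 124 ± 23.9 CPM at 25 mM and 208 ± 19.5 CPM at 5.5 mM (-0.73 (SE 0.10)). In Abca1 all 7 libraries at 25 mM lay below all 8 at 5.5 mM. Vldlr, a receptor for very-low-density lipoprotein, had 31.9 ± 10.3 CPM at 25 mM and 65.0 ± 7.73 CPM at 5.5 mM (-0.99 (SE 0.15)). Of all ABC transporters tested, 3 rose and 5 fell of 20 tested, and Abcb4, which moves phosphatidylcholine, had 77.4 ± 10.4 CPM at 25 mM and 44.4 ± 8.09 CPM at 5.5 mM (0.82 (SE 0.11)). Lpin1, the phosphatase that turns phosphatidic acid into diacylglycerol, had 33.6 ± 4.99 CPM at 25 mM and 69.7 ± 12.9 CPM at 5.5 mM (-1.07 (SE 0.13)).

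Of peroxisomal genes, 8 of 25 tested fell and 0 rose (32.0% lower, median -0.21). Peroxisomes shorten very long and branched fatty acids. Phyh, which hydroxylates phytanoyl-CoA, had 93.1 ± 17.8 CPM at 25 mM and 144 ± 14.8 CPM at 5.5 mM (log2 fold change -0.62 (SE 0.10), adjusted p = 4.0e-04). Hsd17b4 (-0.51), the bifunctional enzyme of the pathway, fell as well. In mitochondrial fatty acid oxidation 0 rose and 4 fell of 30 tested, a share lower (13.3%) near that of all genes (15.4%). Among lipid droplet genes, Plin2 (-0.95), the droplet coat protein, fell and Soat1 (0.51), which esterifies cholesterol, rose.

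Enzymes of one-carbon and polyamine metabolism changed gene by gene. Shmt2, which takes a carbon from serine in mitochondria, had 82.5 to 176 CPM (median 137) at 25 mM, against 250.2 to 425 CPM (median 283) at 5.5 mM (log2 fold change -1.20 (SE 0.14), adjusted p = 1.1e-04). Aldh1l2, which oxidizes formyl-tetrahydrofolate in mitochondria, had 97.1 ± 29.0 CPM at 25 mM and 235 ± 39.8 CPM at 5.5 mM (-1.24 (SE 0.13)), and Mthfd1, which interconverts folates in the cytosol, had 233 ± 12.0 CPM at 25 mM and 350.1 ± 43.6 CPM at 5.5 mM (-0.59 (SE 0.09)). Of the folate list 2 rose and 4 fell of 14 tested. Srm, which makes spermidine, had 97.4 to 133 CPM (median 118) at 25 mM, against 36.4 to 66.2 CPM (median 47.8) at 5.5 mM (log2 fold change 1.13 (SE 0.11), adjusted p = 3.1e-05). Cbs, which channels homocysteine to cysteine, had 186 ± 22.1 CPM at 25 mM and 111 ± 13.5 CPM at 5.5 mM (0.75 (SE 0.10)). In methionine, transsulfuration and polyamine metabolism 4 rose and 3 fell of 18 tested (22.2% higher and 16.7% lower, near the shares of all genes). In nucleotide synthesis 11 rose and 5 fell of 46 tested (23.9% higher and 10.9% lower, beside 15.5% and 15.4% of all genes). Rrm2 (0.62), the subunit of ribonucleotide reductase made in S phase, Impdh1 (0.54), of guanine nucleotide synthesis, Guk1 (0.58) and Cad (0.34), which starts pyrimidine synthesis, rose.

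In nutrient sensing, 14 of 45 genes around mTORC1, the kinase complex that couples amino acids to growth, fell (31.1%) and 5 rose. Eif4ebp1, the repressor of cap-dependent initiation that mTORC1 inactivates, had 2.88 to 17.9 CPM (median 10.5) at 25 mM, against 27.3 to 55.5 CPM (median 33.1) at 5.5 mM (log2 fold change -1.50 (SE 0.21), adjusted p = 7.2e-05). Its relative Eif4ebp2 went the other way, with 33.6 ± 4.86 CPM at 25 mM and 22.3 ± 4.56 CPM at 5.5 mM (0.58 (SE 0.14)). Sesn2, a leucine sensor induced by stress, had 57.3 ± 16.5 CPM at 25 mM and 117 ± 21.2 CPM at 5.5 mM (-1.11 (SE 0.14)), and Flcn (-0.78) (folliculin) fell. Sec13 (0.84), which is shared by a sensor complex, the vesicle coat and the nuclear pore, rose. Among AMPK, SIK and Hippo kinases 4 rose and 3 fell of 34 tested. Sik1, a kinase induced by cAMP, had 31.5 ± 9.02 CPM at 25 mM and 13.0 ± 6.65 CPM at 5.5 mM (1.51 (SE 0.22)), and Nuak2 (1.12) rose.

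In the list of antigen presentation and the interferon response, 3 of 34 tested members rose and 14 fell (41.2% lower, median -0.36). Jak1, the kinase bound to interferon and interleukin receptors, had 135 to 167 CPM (median 150.2) at 25 mM, against 208 to 285 CPM (median 250.3) at 5.5 mM (log2 fold change -0.71 (SE 0.08), adjusted p = 6.0e-05). Stat3, which carries interleukin signals to the nucleus, had 212 to 280.3 CPM (median 242) at 25 mM, against 312 to 486 CPM (median 392) at 5.5 mM (log2 fold change -0.71 (SE 0.09), adjusted p = 1.8e-04). In both, each of the 7 libraries at 25 mM lay below every library at 5.5 mM. Stat2 (-0.75), Stat5a (-0.70), Stat5b (-0.51) and Stat6 (-0.48), named after their values were seen, fell too. Replicate 7 at 25 mM held 62.9 CPM of Stat5a, against 10.1 to 30.6 CPM in the other 25 mM libraries. Irf2 (-0.59) and Parp14 (-0.89) were lower. Of the receptors and SMAD proteins of TGF-β, BMP and activin, 0 of 18 tested members rose and 6 fell (33.3% lower). Acvr1c, the receptor ALK7, had 55.4 ± 9.80 CPM at 25 mM and 106 ± 17.7 CPM at 5.5 mM (-0.87 (SE 0.12)), and Acvr1b (-0.67), Tgfbr1 (-0.59) and Smad9 (-0.77) fell. The protease gene Bmp1 (0.61), which trims procollagen, rose among the ligands and inhibitors.

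Morphogen, growth factor and stress kinase genes changed singly. Shh, the hedgehog ligand, had low counts, 12.0 to 34.6 CPM (median 17.7) at 25 mM, against 0.746 to 13.1 CPM (median 2.35) at 5.5 mM, and its log2 fold change was 2.56 (SE 0.31) (adjusted p = 1.7e-05), with overlap between the groups. The Wnt list had 5 of 18 lower and 0 higher, with Fzd7, a frizzled receptor, at 34.1 ± 8.27 CPM at 25 mM and 66.8 ± 14.5 CPM at 5.5 mM (-0.92 (SE 0.15)) and Ctnnb1, β-catenin, at 666 ± 50.1 CPM at 25 mM and 822 ± 51.1 CPM at 5.5 mM (-0.30 (SE 0.08)). In the Notch list 2 rose and 3 fell of 15 tested, Notch1 (-0.43) among those lower. Of growth factors and receptor tyrosine kinases 4 rose and 2 fell of 15 tested, with Ror2 (0.74) and Fgfr2 (0.82) higher and Ddr1 (-0.41) lower. Few genes of p38, JNK and NF-κB signalling were called (2 rose and 3 fell of 46 tested), among them Map3k15 (-0.79).

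The cAMP pathway and the regulators of G proteins held some of the most abundant changes. Prkar1a, the regulatory subunit that holds protein kinase A inactive, had 1426 to 1679 CPM (median 1585) at 25 mM, against 782 to 1004 CPM (median 846) at 5.5 mM (log2 fold change 0.86 (SE 0.08), adjusted p = 9.1e-06). The other subunit Prkar1b fell, with 87.8 ± 12.1 CPM at 25 mM and 144 ± 17.0 CPM at 5.5 mM (-0.73 (SE 0.10)). Crem, which includes a cAMP-induced repressor, had 29.0 ± 7.16 CPM at 25 mM and 10.5 ± 5.50 CPM at 5.5 mM (1.45 (SE 0.21)), and Pde10a (0.85), a phosphodiesterase, and Creb3l2 (0.50), an ER-anchored transcription factor, rose. The list had 9 members higher and 5 lower of 33. Among G proteins and their regulators 7 rose and 3 fell of 31 tested. Gng12, a γ subunit, had 294 to 524 CPM (median 399) at 25 mM, against 134 to 291 CPM (median 162) at 5.5 mM (log2 fold change 1.17 (SE 0.12), adjusted p = 1.5e-05). Rgs9 (0.73) and Rgs17 (0.95) rose and Grk5 (-0.73), a receptor kinase, fell. Calcium-dependent signalling was even (7 rose and 7 fell of 34 tested, 20.6% each, beside 15.5% and 15.4% of all genes). Scgn, secretagogin, a calcium sensor of islet cells, had 198 ± 56.5 CPM at 25 mM and 393 ± 76.6 CPM at 5.5 mM (-1.01 (SE 0.12)).

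Small GTPase regulators and phosphoinositide enzymes moved in both directions. Of RAB GTPases themselves 5 rose and 1 fell of 30 tested, and of their exchange factors, GTPase-activating proteins and effectors 5 rose and 13 fell of 57 tested. Dennd4c, the exchange factor of RAB10, had 253 to 391 CPM (median 291) at 25 mM, against 471 to 669 CPM (median 628) at 5.5 mM (log2 fold change -0.99 (SE 0.10), adjusted p = 1.2e-04). Among regulators of the RAS superfamily 11 rose and 18 fell of 80 tested (13.8% higher and 22.5% lower, beside 15.5% and 15.4% of all genes), with Rasal2 (0.76), Rasgrf2 (0.80) and Arhgap18 (1.00) higher and Rap1gap (-0.73) and Rap1gap2 (-0.50), which turn off RAP1, lower. Of phosphoinositide enzymes 9 rose and 15 fell of 56 tested (16.1% and 26.8%): Inpp5f, a phosphatase, had 152 ± 14.4 CPM at 25 mM and 88.5 ± 15.0 CPM at 5.5 mM (0.82 (SE 0.09)), and Pi4ka (-0.48), which makes the phosphoinositide of the plasma membrane, fell. In endocytosis and sorting 12 rose and 26 fell of 118 tested, Ap2a2 (0.48) and Lrp10 (0.54) being higher and Ap5z1 (-0.88) lower.

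Among ubiquitin, SUMO and NEDD8 enzymes, 16 of 202 tested members rose and 38 fell (7.92% higher and 18.8% lower, beside 15.5% and 15.4% of all genes). Klhl24, a substrate adaptor of cullin 3, had 6.99 to 31.7 CPM (median 9.24) at 25 mM, against 35.6 to 70.3 CPM (median 55.8) at 5.5 mM, and its log2 fold change was -2.04 (SE 0.20) (adjusted p = 2.7e-05). Fbxl20 (-0.96) fell, and Ube2c (0.84), which ends mitosis, and Rnf130 (0.68) rose.

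Genes of RNA handling and of the nucleus changed singly. In mRNA decay and RNA granules 11 rose and 13 fell of 114 tested, with Tob1 (0.81), Ybx3 (0.72) and Exosc3 (0.75) higher and Cpeb1 (-0.69) lower. In the modification of tRNA and mRNA 5 rose and 11 fell of 87 tested, and Wdr6, a partner of a tRNA methyltransferase, had 528 ± 62.9 CPM at 25 mM and 916 ± 111 CPM at 5.5 mM (-0.80 (SE 0.09)). Of the microRNA machinery 0 rose and 6 fell of 19 tested (31.6% lower), Ago1 (-0.50), Tnrc6b (-0.40) and Mov10 (-0.93) among them. In RNA polymerase II and Mediator 13 rose and 12 fell of 112 tested: Ell2 (1.00), an elongation factor known from antibody-secreting cells, rose, and Polr2a (-0.55), the catalytic subunit, and Ctr9 (-0.60) fell. In DNA repair 8 rose and 16 fell of 95 tested, Mdc1 (-0.60) and Prkdc (-0.74) being lower and Atrip (0.74) higher. Protein phosphatases showed little change (5 rose and 4 fell of 51 tested), with Ppp1ca (0.45) higher and Ppp6r3 (-0.43) lower.

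Of developmental transcription factors, 8 of 78 tested members rose and 19 fell (10.3% higher and 24.4% lower, beside 15.5% and 15.4% of all genes). Bhlha15, known as MIST1 and found in cells that secrete much protein, had 25.9 to 47.7 CPM (median 37.3) at 25 mM, against 2.60 to 16.9 CPM (median 11.6) at 5.5 mM, without overlap (log2 fold change 1.59 (SE 0.20), adjusted p = 1.5e-05). Sox4 (-0.74) and Tshz3 (-0.70) fell. Of nuclear receptors and their coregulators 3 rose and 10 fell of 35 tested, Vdr, the vitamin D receptor, rising with 24.4 ± 6.09 CPM at 25 mM and 10.4 ± 3.80 CPM at 5.5 mM (1.09 (SE 0.19)). Of imprinted genes, 2 of 22 tested members rose and 8 fell (36.4% lower, median -0.30). Peg3, a zinc-finger gene expressed from the paternal copy, had 2092 to 2830.1 CPM (median 2386) at 25 mM, against 3038 to 4260.4 CPM (median 3476) at 5.5 mM (log2 fold change -0.55 (SE 0.09), adjusted p = 7.1e-04). Its groups did not overlap. Igf2r (-0.46) and Usp29 (-0.94) fell, and Gnas, the stimulatory G protein, rose, with 1593 ± 261 CPM at 25 mM and 1132 ± 164 CPM at 5.5 mM (0.47 (SE 0.08)).

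Stress and survival lists were mixed. Among p53 targets and cell-cycle inhibitors 6 rose and 5 fell of 25 tested: Plk3 (0.72) and Ccng1 (0.71) were higher and Trp53inp1 (-1.35) and Trp53 (-0.48) itself lower. In the apoptosis list 7 rose and 5 fell of 34 tested, and the members that rose most surely are better known as partners of HSP70, Bag2 with 24.6 ± 4.40 CPM at 25 mM and 8.11 ± 2.12 CPM at 5.5 mM (1.34 (SE 0.18)) and Bag3 with 95.5 ± 11.4 CPM at 25 mM and 46.9 ± 7.20 CPM at 5.5 mM (1.02 (SE 0.12)). Ddit3 (-1.85), the stress factor CHOP, and Dapk1 (-0.92) fell. A second gene model carries the symbol Ddit3 (-1.76), and reads may be split between them. Of hypoxia targets 4 rose and 4 fell of 18 tested: Ndrg1 had 113 to 190.1 CPM (median 163) at 25 mM, against 244 to 325 CPM (median 289.9) at 5.5 mM (log2 fold change -0.89 (SE 0.10), adjusted p = 1.7e-05), and P4ha1 (0.55), which hydroxylates collagen, rose.

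Channels and carriers also changed gene by gene. Of two-pore, TRP, chloride and HCN channels 3 rose and 5 fell of 23 tested. Kcnk1 had 77.9 to 118 CPM (median 110.0) at 25 mM, against 31.2 to 62.7 CPM (median 53.3) at 5.5 mM (log2 fold change 1.03 (SE 0.13), adjusted p = 9.1e-06), and Kcnk16, the two-pore potassium channel TALK-1 of β cells, had 147 to 253 CPM (median 195) at 25 mM, against 65.4 to 130.4 CPM (median 114) at 5.5 mM (log2 fold change 0.88 (SE 0.13), adjusted p = 8.1e-05). Neither overlapped between the groups. The pacemaker channel gene Hcn4 (-0.73) and the lysosomal channel gene Mcoln1 (-0.54) fell. Among bicarbonate, proton and other small-ion exchangers 5 rose and 6 fell of 24 tested: Slc16a6, a monocarboxylate carrier, had 25.9 to 66.2 CPM (median 33.6) at 25 mM, against 6.32 to 15.6 CPM (median 9.86) at 5.5 mM (log2 fold change 1.82 (SE 0.17), adjusted p = 9.1e-06), and Slc4a8 (-0.69) and Slc4a7 (-0.51), which import bicarbonate, fell. In mitochondrial carriers and dynamics 12 rose and 5 fell of 64 tested (18.8% higher and 7.81% lower, beside 15.5% and 15.4% of all genes). Slc25a3, the phosphate carrier, had 625 to 764 CPM (median 693) at 25 mM, against 444 to 537 CPM (median 479) at 5.5 mM (log2 fold change 0.51 (SE 0.07), adjusted p = 6.0e-05), while Lrpprc (-0.55), which stabilizes mitochondrial mRNAs, and Vdac1 (-0.42), the main pore of the outer membrane, fell.

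**Figure D5:**
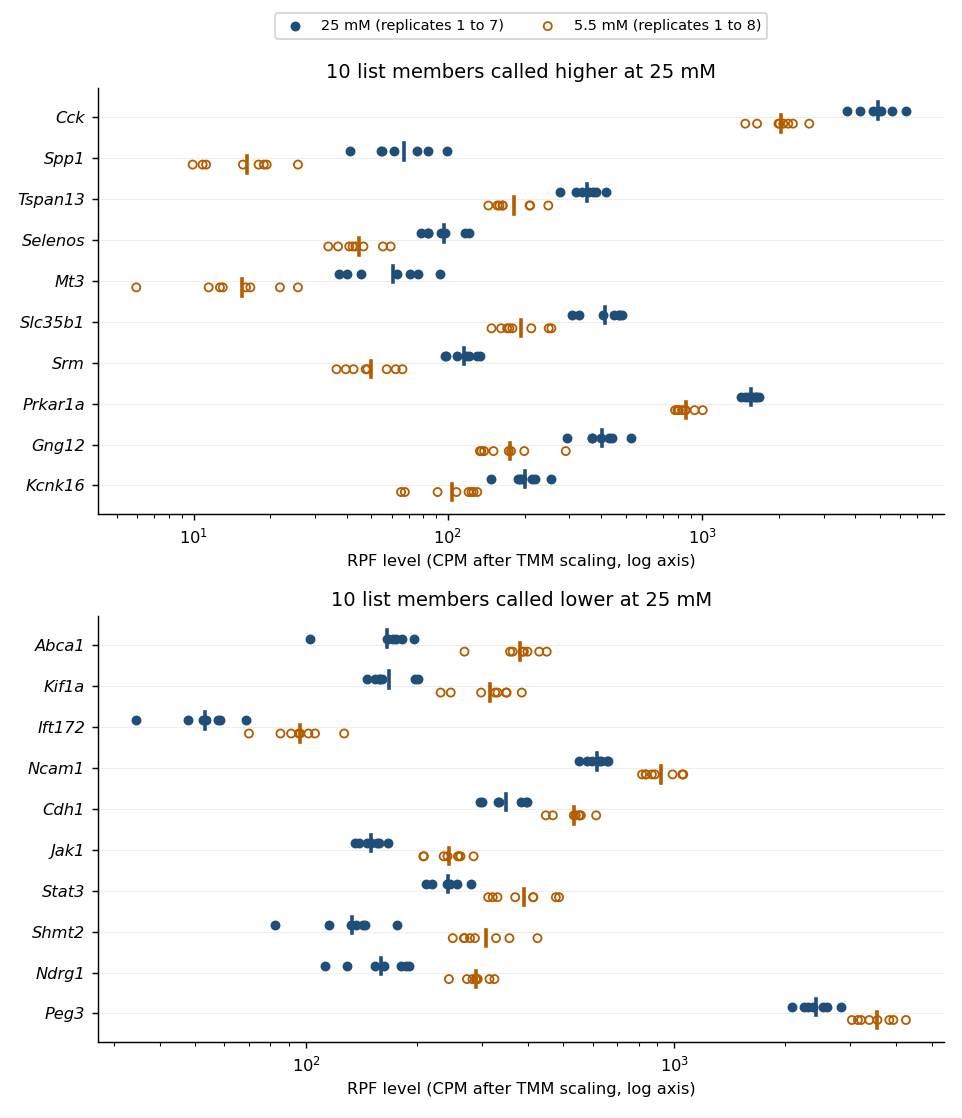
RPF level (CPM after TMM scaling, log axis) in each library of 20 genes from the lists, chosen after their values were seen: filled circles are the 7 libraries at 25 mM, open circles the 8 at 5.5 mM, and short bars the group means. Upper rows hold 10 genes called higher and lower rows 10 genes called lower. In Cck every library at 25 mM lies above every one at 5.5 mM, and in Abca1 every one lies below.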

How the data were processed

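RPF libraries of MIN6 cells were sequenced by the authors, who ran XPRESSyourself against Ensembl annotation, took out rRNA alignments and PCR duplicates, and deposited a table of raw read counts per gene. Removing duplicates without molecular identifiers can lower the counts of abundant, short genes. Of its 21927 gene identifiers, 21808 matched a symbol. The matched RNA libraries were not analysed here, so the counts were not set against mRNA. Genes with low counts were removed with filterByExpr, libraries were scaled by TMM, and edgeR 4.0.16 (R 4.3.3) fitted a quasi-likelihood model of glucose and batch to all 16 libraries, with Benjamini-Hochberg adjustment over all genes tested. Fold changes and CPM were taken from the 15 libraries left without 25 mM replicate 8. The count totals of the second batch were lower, which makes its values less precise. Replicates are labelled as biological, and where they share a culture the p-values cover less than the spread between cultures. The closest pair within a group differed by more than sampling noise (chi-square per degree of freedom 1.47), so none was counted as a repeat.

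The 49 gene lists and the members were chosen with earlier results of these data known. Named genes were the 15 highest and 15 lowest log2 fold changes among called genes above the median level, equal in sign in both batches, without overlap and not set out before, up to 5 called members of each list with the smallest p, the genes that describe the library left out, and the cell type markers. Genes shown with promoter sequences and those said to be chosen afterwards fall outside this rule. Some genes that the rule names are not reported here. Gene spans and promoters came from RefSeq (GRCm38.p6) by symbol. Alternatives were DESeq2 1.42.0 (its size factors and its Wald test), library size scaling, scaling without insulin, no filter, no batch term, a replicate block, each batch alone, an adjusted p under 0.05, and each replicate number left out. The procedure was tested on simulated data. Figures were drawn with matplotlib.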

Additional observations from a re-analysis of the deposited data

Results flagged for a closer look

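Among the 209 genes described with values, each glucose concentration was searched for a library whose gap to the nearest other library took up most of the range of its group. Of 418 such groups, 27 held one, and chance gives about 1 in 20. The library of 5.5 mM replicate 3 accounted for 9 of them, and no other library for more than 3. It is also the library that lay apart from its batch in its distance to the group means.

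In 5.5 mM replicate 3, genes called higher at 25 mM stood above the other 5.5 mM libraries. Manf had 557 CPM there, Gng12 291 CPM, Gcg 204 CPM, Selenof 224 CPM, Ube2j1 147 CPM and Fth1 62.0 CPM. Genes called lower at 25 mM stood below them, with 172 CPM of Ank2, 279 CPM of Polr2a and 71.8 CPM of Spata13. All of these lie on the side of the 25 mM libraries. Without this library all 206 of the genes described that were still tested kept their call, though they had been chosen from called genes.

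Single libraries stood out in the other groups. At 25 mM, replicate 1 was low in Cbs (139 CPM), replicate 2 was low in Abca1 (103 CPM) and high in Gcg (442 CPM), and replicate 4 was high in Tns2 (26.2 CPM). Replicate 5 was high in Pde10a (71.0 CPM), replicate 6 in Exosc3 (43.2 CPM), Klhl24 (31.7 CPM) and Slc16a6 (66.2 CPM), and replicate 7 was high in Pla2g12a (36.7 CPM) and Stat5a (62.9 CPM) and low in Phyh (55.0 CPM). At 5.5 mM, replicate 4 was high in Hsd17b4 (144 CPM), replicate 5 in Sec16b (24.1 CPM), replicate 7 in Acvr1c (145 CPM), Col27a1 (67.4 CPM) and P3h1 (47.6 CPM), and replicate 8 in Pde10a (36.0 CPM) and Shh (13.1 CPM). Stat5a was called lower although its library of 25 mM replicate 7 lay above the other libraries at 25 mM, of which the highest had 30.6 CPM.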

How the results depend on the processing

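Of the calls, 42.5% to 52.2% were higher under the 4 ways of scaling. With 1351 genes higher and 1338 lower in the fit reported, the second batch alone gave 197 and 94, the setting that moved both counts most. Leaving out 1 replicate number gave 973 to 1507 higher and 876 to 1593 lower genes, the lowest of each without replicate 2, and 1445 and 1462 without 5.5 mM replicate 3, a setting chosen after seeing the data. Without 25 mM replicate 8 there were 1627 and 1572 calls, and 2628 of the 2689 genes called with it remained. Library size scaling gave 1176 and 1593. An adjusted p under 0.05 kept 1044 and 1027. Of the 209 called genes described, none changed sign under any of these settings. They had been chosen from called genes, many by the smallest p of their list or by equal sign in both batches. Their stability is thus partly fixed by that choice and does not describe the calls at large. The second batch alone called 66 of the 187 that it could test and the first batch 205 of 209, and in each of the remaining settings at most 7 of the genes that could still be tested lost their call. List counts were less stable, since 94 of 98 moved by over 1.5 times in the second batch alone and 36 without replicate 2.

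The fit with a replicate block in place of batch gave 1499 higher and 1539 lower genes, and 2666 of the 2689 calls were shared. Deviations of same-numbered libraries correlated at 0.155 to 0.476 in replicates 1 to 4 and at 0.0146 to 0.0332 in replicates 5 to 7, and not every library correlated best with its own number, so the samples were treated as sharing a number only.

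Changes of low genes in the second batch are the least certain, because its libraries held the fewest counts. Footprint counts do not separate mRNA abundance from ribosome load. Calls rest on 1 cell line at 1 time point.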
